A study of Homo sapiens with 15 samples.

Results

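The cytoplasmic ribosomal protein genes encode the proteins of the large (60S) and small (40S) ribosomal subunits outside the mitochondria. They were taken by symbol: RPL or RPS followed by digits and an optional A, X or L, together with RPLP0, RPLP1, RPLP2, RPSA and FAU. Pseudogenes, RPS6K kinases and Y-linked copies were left out, and a mean of at least 10 counts over the libraries was required. Of 60649 gene rows in each table, 82 matched the symbols and 79 reached the minimum, 47 of the large and 32 of the small subunit. Among those that did not were RPL3L, a muscle paralog of RPL3 (mean count 0.867), and RPL10L, a testis paralog of RPL10 (0 counts in all 15 libraries).

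The cells are HSC-5, a line of human cutaneous squamous cell carcinoma, sequenced as 15 libraries of 5 conditions with 3 biological replicates each. The labels give sgNeg cells, the control condition, as wild type, sgPRMT5-1 and sgPRMT5-2 cells as PRMT5 knockouts, and sgWDR77-1 and sgWDR77-2 cells as WDR77 knockouts. Neomycin is the labelled treatment in every condition, controls included, and the methods describe lentiviral guides in cells that express Cas9, with G418 selection. The sources used here do not say that single clones were grown, so a knockout library can hold cells with different edits. PRMT5KO and WDR77KO below mean both guides of a gene (6 libraries), and every comparison with sgNeg uses the same 3 control libraries.

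Each ribosome carries 1 copy of most of these proteins, and cells make them in step with ribosomal RNA, which RNA polymerase I transcribes in the nucleolus. Many of their mRNAs begin with a terminal oligopyrimidine (TOP) tract, a stretch of C and T through which translation of the whole family is adjusted to growth signals. PRMT5 adds symmetric methyl groups to arginines of spliceosomal, histone and other proteins, RPS10 among them, and WDR77 (also called MEP50) is the partner that presents substrates to it.

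Gene counts summed to 5146711 in the smallest library and 6730428 in the largest. Squamous epithelial markers were measured in every library, with KRT17 at 4080 to 8073 counts, TP63 at 1735 to 2859, SFN at 2632 to 4397, DSG3 at 140 to 350 and KRT5 at 185 to 4504. KRT5 differed between conditions, with 3025, 3881 and 4504 counts in sgNeg, 394, 307 and 320 in sgPRMT5-2 and 235, 231 and 185 in sgWDR77-1. KRT14, another basal keratin, had 1 to 4 counts per library, which goes against a basal squamous pattern. Of the markers of other cell types, COL1A2, CD3E and TYR had 0 counts in all libraries and PTPRC had 1 count in total, while COL1A1 had 41 to 86 counts and the endothelial gene CDH5 had 175, 157 and 184 in sgWDR77-1 and 72 to 122 in the other conditions. Other endothelial genes were not higher there, with VWF at 10, 12 and 11 counts in sgWDR77-1 and 21, 15 and 14 in sgNeg, and PECAM1 at 0 to 3 in all libraries.

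The targeted genes were checked first. PRMT5 stood at 59.1, 49.6 and 67.8 normalized CPM (counts scaled to a common library size) in sgNeg, at 33.0, 35.8 and 41.4 in sgPRMT5-1 and at 44.2, 44.5 and 39.4 in sgPRMT5-2. All 6 PRMT5KO libraries were below all sgNeg libraries, with a log2 fold change of -0.56 (95% interval -0.79 to -0.33, limma voom adjusted p = 0.00106). WDR77 stood at 125, 114 and 119 CPM in sgNeg, at 30.8, 52.0 and 53.3 in sgWDR77-1 and at 26.6, 24.9 and 22.0 in sgWDR77-2. All 6 WDR77KO libraries were below all sgNeg libraries, with a log2 fold change of -1.86 (-2.13 to -1.59, adjusted p = 2.28e-09). Among the other proteins of the complex, the adaptor RIOK1 was higher in PRMT5KO (log2 fold change 0.47, adjusted p = 0.0135), while the adaptors CLNS1A (0.12, adjusted p = 0.366) and COPRS (0.26, adjusted p = 0.120) did not pass the threshold.

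One library stood apart from the rest. In sgWDR77-1 replicate 1 the 79 genes took 3.74% of gene counts, against 4.61% to 6.01% in the other 14 libraries. Relative to the sgNeg mean, the 76 genes with a mean count of at least 50 had a median log2 ratio of -0.47 there and a standard deviation (SD) between genes of 0.42, whereas the SD was 0.05 to 0.20 in the others. RPS21 was lowest (-1.44) and RPL26 highest (0.53) in that library. Over 9064 genes, the log2 ratio of that library had a correlation of -0.52 with the GC content of the transcript, and those of the others ranged from -0.22 to 0.22. Over the 76 ribosomal protein genes it was -0.23, inside the -0.39 to 0.19 of the other libraries; genes are not independent replicates, and the part of base composition in the results was not tested. Against the other libraries of its group, its counts gave chi-square values divided by degrees of freedom of 12.5 and 17.7, the highest among the pairs of replicates (the others 1.55 to 9.16). Many results that rest on it are given with and without it, a choice made after seeing the data. Single genes outside the 79 are given with it only.

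**Figure D1:**
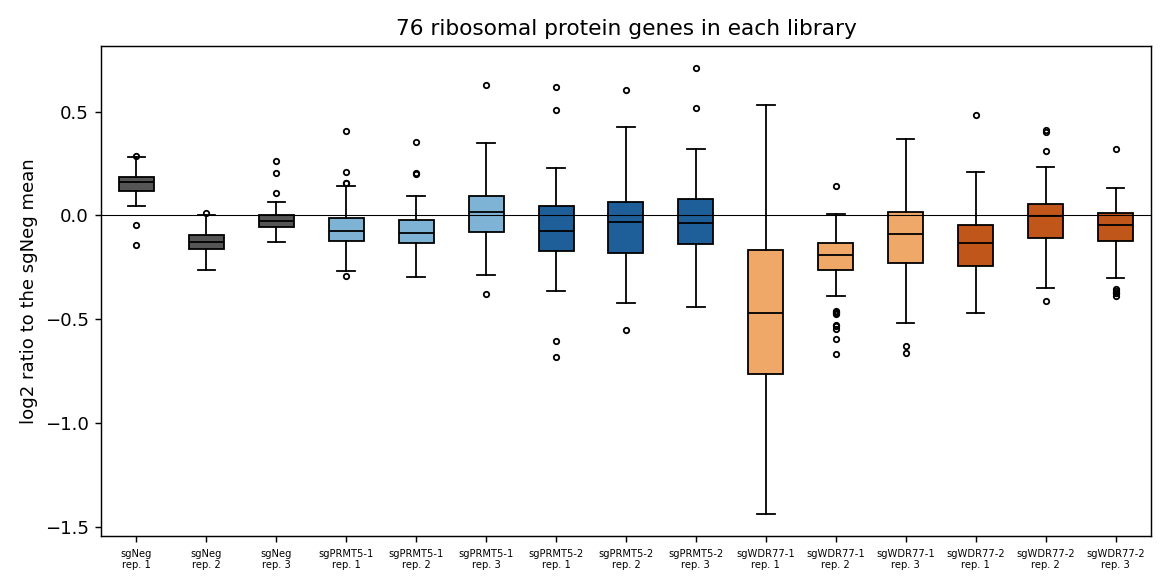
The log2 ratio of each of 76 ribosomal protein genes to its sgNeg mean (vertical axis) in each of 15 libraries; boxes span the quartiles, lines mark medians and circles are genes beyond the whiskers. The box of sgWDR77-1 replicate 1 is centred on -0.47 and is the widest of the 15.

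The genes together took 6.01%, 5.09% and 5.29% of gene counts in sgNeg, 4.89%, 4.89% and 5.12% in sgPRMT5-1, and 4.66%, 4.78% and 4.84% in sgPRMT5-2. In sgWDR77-1 they took 3.74%, 4.68% and 5.14%, and in sgWDR77-2 4.61%, 5.06% and 4.97%. The mean was 5.46% ± 0.487 (SD, n = 3) in sgNeg and 4.76% ± 0.0909 in sgPRMT5-2, whose libraries all lay below those of sgNeg, as did those of sgWDR77-2, while the ranges of sgPRMT5-1 and sgWDR77-1 overlapped that of sgNeg. Within sgNeg, replicate 1 was the highest of all libraries, and replicate 2 had the largest share of reads outside genes (7.16%), followed by sgWDR77-1 replicates 2 and 3 (6.04% and 5.70%); the other libraries had 2.75% to 4.26%. In bulk RNA, fewer cells of a kind and less RNA per cell cannot be told apart.

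**Figure D2:**
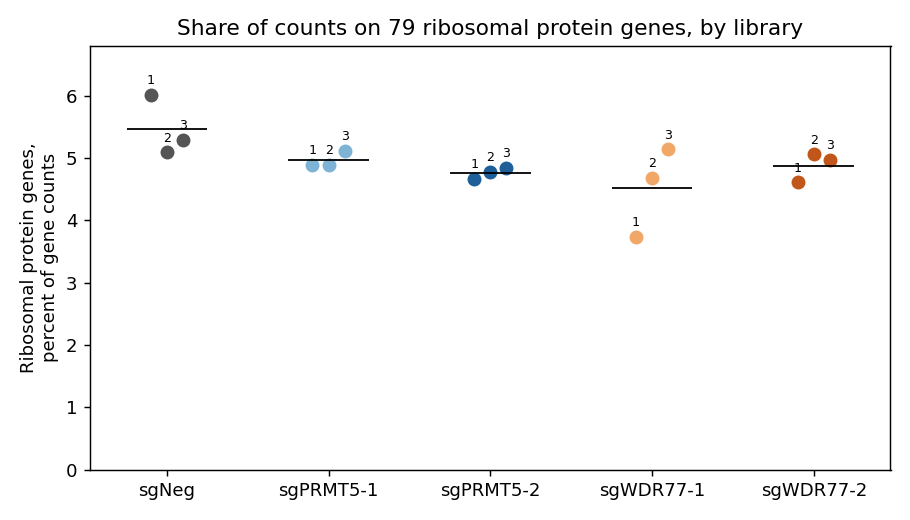
The percent of gene counts on the 79 ribosomal protein genes (vertical axis) in each library, numbered by replicate, with horizontal lines at the group means. The values run from 3.74% in sgWDR77-1 replicate 1 to 6.01% in sgNeg replicate 1.

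Levels between genes were compared per kilobase of exon in sgNeg. RPS12, a small subunit protein, had the highest level, 1459 CPM per kilobase, followed by RPS2 (1383), which lines the mRNA entry channel, and RPL7A (943), a large subunit protein. RPS10 (0.705), RPL36A (0.726) and RPL17 (0.971) had the lowest. Each of these 3 shares exon bases with a read-through gene on the same strand (31.5% with RPS10-NUDT3, 8.40% with RPL36A-HNRNPH2 and, small nucleolar RNAs included, 32.9% with RPL17-C18orf32), as RPS2 does with other genes (25.9%); whether this lowers their counts was not tested. Their raw counts per library were 2 to 22, 10 to 29 and 7 to 32. The order depends on the length used: with the MANE Select transcript RPS2 ranked 1 and RPLP0 ranked 2, and RPS12 ranked 6. Across the 79 genes, 77 have at least 1 annotated pseudogene and 34 share an exon with a gene on the same strand, so some of their reads may be missing from these values. Of all reads in a library, 9.49% to 13.1% were placed more than once and 7.09% to 7.93% were ambiguous between genes, and the share from these genes is not known. The genes are spread over 21 chromosomes, with 12 on chromosome 19 and 4 on X.

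The starts of the genes were read from RefSeq promoter windows (GRCh38.p14), in which 64 of the 79 had an entry. Only the first window listed for each gene was used, so it can differ from the start most used in these cells. A run of at least 8 bases made only of C and T covered or touched the 5 bases on either side of the annotated start in 48 of 64 (75.0%), against 11.3% of all 27305 windows. C was the annotated first base in 47 of 64 (73.4%) and in 4093 of the 27305. CCGGAAG, searched on both strands, was found in 22 of 64 windows of 300 bases (34.4%) against 10.7% of all, TATAAA in 5 (7.81%) against 12.0%, and CACGTG in 3 (4.69%) against 7.43%. Windows of 30 bases centred on the start are shown for genes whose values are given below, the stalk genes and RPS21, RPSA, RPL27A and RPL6, which were lower in WDR77KO, and RPL22, RPS26 and RPS27L, which differed in PRMT5KO; capitals mark the longest pyrimidine run at the start.
RPLP0: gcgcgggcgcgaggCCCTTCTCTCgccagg
RPLP1: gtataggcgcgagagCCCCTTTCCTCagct
RPLP2: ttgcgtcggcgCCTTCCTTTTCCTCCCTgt
RPS21: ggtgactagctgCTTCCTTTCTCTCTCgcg
RPSA: tttcctgccgcctgTCTTTTCCgtgctacc
RPL27A: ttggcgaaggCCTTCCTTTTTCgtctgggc
RPL6: tatttgtaTCCTCagtgaatcagaaccaga
RPL22: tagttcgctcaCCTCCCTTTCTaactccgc
RPS26: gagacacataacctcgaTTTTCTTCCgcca
RPS27L: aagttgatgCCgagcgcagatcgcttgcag

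These windows lie at chr12:120201097-120201126 (minus strand), chr15:69452803-69452832 (plus), chr11:809952-809981 (plus), chr20:62387088-62387117 (plus), chr3:39406705-39406734 (plus), chr11:8682777-8682806 (plus), chr12:112411428-112411457 (minus), chr1:6199581-6199610 (minus), chr12:56041903-56041932 (plus) and chr15:63157463-63157492 (minus), in the order shown. The run was 17 bases long in RPLP2, 15 in RPS21 and 5 in RPL6, and in RPS27L the longest was 2, so the RPS27L window holds no such tract at the annotated start. A match describes these letters only.

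WDR77KO was compared with sgNeg to see what the genes do when the partner of PRMT5 is lost. Of the 79 genes, 12 were lower (15.2%) and 0 were higher, beside 5.55% lower and 2.90% higher of all 14056 genes tested (limma voom, Benjamini-Hochberg adjusted p under 0.05). At an unadjusted p under 0.05, 25 differed. Counts at an unadjusted p, here and below, stand without the share of all genes and are not compared with it. Their median log2 fold change was -0.14 (0.00 over all genes), 72 of the 79 were below 0, and the values ran from -0.60 to 0.25. Small subunit genes gave 5 of the 12 (median -0.17) and large subunit genes 7 (median -0.14). Without sgWDR77-1 replicate 1, 15 were lower and 1, RPL38, was higher, beside 6.98% lower and 4.21% higher of all 14074 genes; all 12 were again among the 15, and the median was -0.10. Left out in turn, sgNeg replicate 1 brought the result to 6 lower and 1 higher, and sgWDR77-1 replicate 3 to 22 lower. Fitted on only the libraries compared, 7 were lower. No share of all genes is given for these last fits, nor for others below that print none. In those, a change particular to the 79 genes cannot be told from a general one.

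The stalk genes moved together in this comparison. RPLP0, RPLP1 and RPLP2 form the acidic stalk of the large subunit, which recruits the elongation factors. RPLP0 stood at 3648, 2971 and 3385 CPM in sgNeg, at 1598, 2090 and 2148 in sgWDR77-1 and at 2448, 2493 and 2579 in sgWDR77-2. All WDR77KO libraries were below all sgNeg libraries, with a log2 fold change of -0.60 (95% interval -0.77 to -0.42, adjusted p = 5.41e-05), and it was -0.53 without sgWDR77-1 replicate 1 (adjusted p = 1.07e-06). RPLP1 stood at 1327, 1117 and 1225 CPM in sgNeg, at 576, 880 and 991 in sgWDR77-1 and at 940, 1016 and 1000 in sgWDR77-2. The groups did not overlap, and the log2 fold change was -0.46 (-0.69 to -0.24, adjusted p = 0.00807), or -0.35 without the library that stood apart (adjusted p = 0.000224). RPLP2 stood at 605, 520 and 557 CPM in sgNeg, at 413, 387 and 438 in sgWDR77-1 and at 443, 475 and 431 in sgWDR77-2. Here too every knockout library was below every control, with a log2 fold change of -0.38 (-0.53 to -0.23, adjusted p = 0.00148), or -0.38 without that library (adjusted p = 0.000265).

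Other large subunit genes were lower as well. RPL27A, close to the peptidyl transferase centre, stood at 994, 847 and 829 CPM in sgNeg, at 638, 606 and 692 in sgWDR77-1 and at 639, 715 and 693 in sgWDR77-2. The groups did not overlap, and sgWDR77-1 replicate 1 was not the lowest library (log2 fold change -0.42, -0.57 to -0.27, adjusted p = 0.000542; -0.42 without it). RPL6, a large subunit protein on the solvent side, stood at 712, 635 and 689 CPM in sgNeg, at 533, 470 and 428 in sgWDR77-1 and at 572, 531 and 518 in sgWDR77-2. All knockout libraries were below the controls (-0.42, -0.58 to -0.26, adjusted p = 0.00106), and the value was -0.46 without sgWDR77-1 replicate 1. RPL4, which reaches into the exit tunnel, was lower with -0.33 (adjusted p = 0.00247; -0.31 without it). RPL5 and RPL11 carry the 5S ribosomal RNA and bind MDM2 when ribosome assembly is disturbed. RPL5 stood at 1141, 1021 and 1018 CPM in sgNeg, at 840, 824 and 886 in sgWDR77-1 and at 853, 899 and 857 in sgWDR77-2, with no overlap (-0.30, -0.43 to -0.17, adjusted p = 0.00400; -0.30 without sgWDR77-1 replicate 1). RPL11 did not pass the threshold, with 559, 517 and 531 CPM in sgNeg against 645, 469 and 508 in sgWDR77-1 and 518, 568 and 543 in sgWDR77-2 (0.01, -0.16 to 0.18, adjusted p = 0.964).

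In the small subunit, RPS21 stood at 248, 207 and 219 CPM in sgNeg, at 82.4, 148 and 156 in sgWDR77-1 and at 169, 200 and 183 in sgWDR77-2. It sits near the mRNA exit side of the subunit, and every knockout library was below every control. The log2 fold change was -0.57 (-0.84 to -0.29, adjusted p = 0.00813) and -0.42 without sgWDR77-1 replicate 1 (adjusted p = 0.000842). RPSA, also known as the laminin receptor precursor, stood at 1286, 1093 and 1179 CPM in sgNeg, at 490, 850 and 887 in sgWDR77-1 and at 1012, 1083 and 1087 in sgWDR77-2. The sgWDR77-2 libraries were below the controls by a small margin and sgWDR77-1 replicate 1 was far below them; the log2 fold change was -0.44 (-0.69 to -0.19, adjusted p = 0.0227), and -0.30 without that library (adjusted p = 0.000707). The small subunit gene RPS24 was lower by -0.34 (adjusted p = 0.0158), or -0.41 without it, although its groups overlapped. Another, RPS13, was lower by -0.35 (adjusted p = 0.0446), or -0.24 without it. RPS14, named with RPL6 in this comparison after its values were seen, had -0.41 (adjusted p = 0.0400), or -0.27 without it. With sgNeg replicate 1 left out, RPLP1 (adjusted p = 0.0555), RPS21 (0.0600), RPSA (0.109), RPS24 (0.0754), RPS13 and RPS14 (0.158) no longer passed, nor did RPSA without sgNeg replicate 3 (0.0614). The call of RPS14 was lost without any 1 of the sgNeg libraries, sgPRMT5-1 replicates 1 or 2, sgPRMT5-2 replicates 1 or 3, or sgWDR77-2 replicate 1. The call of RPS13 was kept only when sgPRMT5-1 replicate 3 or a library of sgWDR77-1 was the one left out. With the guides pooled, RPL5, RPLP1, RPS21, RPSA, RPS24, RPS13 and RPS14 did not pass, and with only the libraries compared RPLP1, RPSA, RPS24, RPS13 and RPS14 did not.

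**Figure D3:**
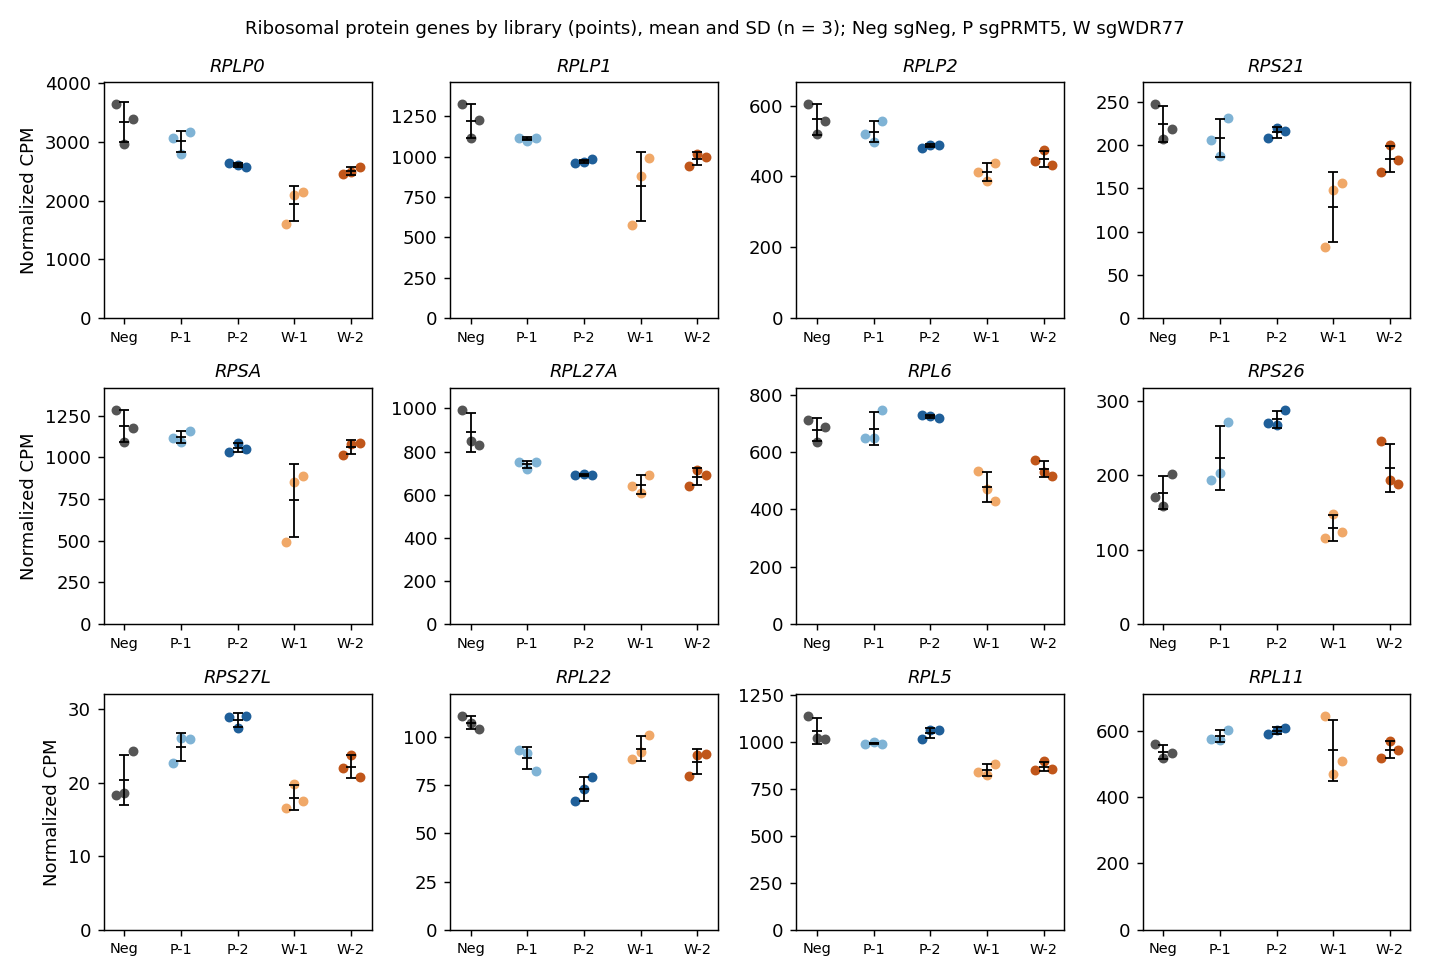
Normalized CPM (vertical axes, from 0) of 12 ribosomal protein genes in each library (points), with the mean and SD of each condition (n = 3). RPLP0, RPLP1, RPLP2, RPS21, RPSA, RPL27A, RPL6 and RPL5 are lower in all WDR77 guide libraries than in sgNeg, and RPS26 and RPS27L are highest in sgPRMT5-2.

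The guides to WDR77 were also taken one by one. With sgWDR77-1, 21 genes were lower (26.6%) and 0 higher, beside 5.90% lower and 3.58% higher of all genes, and 44 differed at an unadjusted p under 0.05. Without its replicate 1, 15 were lower and 0 higher, beside 5.31% lower and 3.89% higher, and 14 of these were among the 21. Without its replicate 3 the count was 39, and 12 without sgNeg replicate 1. Fitted on only the libraries compared, 2 were lower. For the counts of 39, 12 and 2, the share of all genes in the same fit is not given. With sgWDR77-2, 7 were lower (RPLP0, RPL27A, RPS24, RPL6, RPLP2, RPL4 and RPL5) and 0 higher, beside 2.98% lower and 1.81% higher; 4 were lower without sgWDR77-2 replicate 1 or sgWDR77-2 replicate 3, and 1 was lower and 1 higher without sgNeg replicate 1. With sgWDR77-1 replicate 1 left out, 12 were lower and 1 higher, and the share of all genes in that fit is not given. The RPS24 call of this guide passed in 14 of 23 alternatives.

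Tested directly, sgWDR77-2 against sgWDR77-1 had 5 higher genes and 0 lower, beside 1.84% higher and 0.569% lower of all genes. Among these were RPS26 (log2 fold change 0.70, adjusted p = 0.00972), RPSA (0.56, adjusted p = 0.0353), RPS7 (0.49, adjusted p = 0.0300) and RPLP0 (0.38, adjusted p = 0.0432). RPS7 was named after its values were seen. In these 4, each sgWDR77-2 library was above each sgWDR77-1 library. Without sgWDR77-1 replicate 1, 3 were higher (RPS26, RPSA and RPS7) and 0 lower, beside 2.28% higher and 1.31% lower, with values of 0.61, 0.28 and 0.29. The count was 18 without sgWDR77-1 replicate 3, 6 without sgWDR77-1 replicate 2, 4 without sgPRMT5-1 replicate 3 and 0 to 3 without any 1 of the others. Of 23 alternatives, RPS26 passed in 21, RPSA in 10 and RPLP0 in 6. Fitted on the 6 libraries alone, 0 of the 79 passed the limma voom threshold, while 28 of them had an unadjusted p under 0.05 in the fit of all libraries.

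PRMT5KO was compared with sgNeg in the same fit. Of the 79 genes, 2 were higher (2.53%) and 3 lower (3.80%), below the 12.0% higher and 10.8% lower of all genes. Their median log2 fold change was -0.05 (0.01 over all genes), and 14 had an unadjusted p under 0.05. The count moved with the library that stood apart. That library is in neither group, but all 15 libraries enter the estimate of each gene's spread in this fit. Why the count moved was not tested. Without sgWDR77-1 replicate 1, 17 were lower (21.5%) and 2 higher, beside 15.1% lower and 14.5% higher, and the median was -0.07. The 5 genes passed in both fits. Without sgWDR77-1 replicate 3, 6 were lower and 2 higher. With library totals alone 10 were lower and 1 higher.

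RPL22, a large subunit protein that also binds RNA outside the ribosome and that has the paralog RPL22L1, was the lowest. It stood at 111, 107 and 104 CPM in sgNeg, at 93.2, 91.5 and 82.5 in sgPRMT5-1 and at 66.8, 73.1 and 79.0 in sgPRMT5-2. All PRMT5KO libraries were below all controls (log2 fold change -0.42, -0.59 to -0.24, adjusted p = 0.00105; -0.44 without sgWDR77-1 replicate 1). RPL22L1, in the list of other ribosomal components, stood at 66.2, 53.6 and 55.3 CPM in sgNeg, at 69.7, 72.1 and 78.2 in sgPRMT5-1 and at a mean of 102 (SD 2.26) in sgPRMT5-2. It was above sgNeg in all PRMT5KO libraries (0.57, 0.38 to 0.76, adjusted p = 0.000106). In WDR77KO the log2 fold changes were -0.25 for RPL22 (adjusted p = 0.0656) and 0.09 for RPL22L1 (adjusted p = 0.630).

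RPL27A and RPLP0 were lower here too. In PRMT5KO, RPL27A stood at 749, 721 and 750 CPM with sgPRMT5-1 and at 689, 697 and 692 with sgPRMT5-2, all below the sgNeg values given above (-0.31, -0.46 to -0.16, adjusted p = 0.00353; -0.33 without sgWDR77-1 replicate 1). RPLP0 stood at 3057, 2799 and 3161 CPM with sgPRMT5-1, which overlapped sgNeg, and at 2638, 2610 and 2569 with sgPRMT5-2, which did not (-0.25, -0.42 to -0.08, adjusted p = 0.0345; -0.27 without sgWDR77-1 replicate 1). The RPLP0 call was lost without sgNeg replicate 1, sgNeg replicate 3 or sgPRMT5-1 replicate 2, and with upper-quartile factors. The genes lower in both knockouts were these 2, which is 66.7% of those lower in PRMT5KO and 16.7% of those lower in WDR77KO; both comparisons share sgNeg. Over all genes, 402 were lower in both (26.6% and 51.5%). Leaving out sgWDR77-1 replicate 1 made it 9 of the ribosomal protein genes (of 17 and 15 lower) and 552 of all genes (26.0% and 56.2%).

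RPS26 and RPS27L were higher. RPS26, at the mRNA exit channel of the small subunit, stood at 170, 158 and 202 CPM in sgNeg, at 193, 203 and 272 in sgPRMT5-1 and at 270, 267 and 288 in sgPRMT5-2. The sgPRMT5-2 libraries lay above all controls and the sgPRMT5-1 libraries overlapped them (0.48, 0.25 to 0.72, adjusted p = 0.00353; 0.46 without sgWDR77-1 replicate 1). RPS27L is a paralog of RPS27 that is induced by p53. The authors state that the cell lines of their study, HSC-5 among them, carry mutations that inactivate p53. RPS27L stood at 18.3, 18.6 and 24.3 CPM in sgNeg, at 22.6, 26.0 and 25.9 in sgPRMT5-1 and at 28.9, 27.4 and 29.1 in sgPRMT5-2. Again sgPRMT5-2 was above all controls and sgPRMT5-1 overlapped them (0.40, 0.15 to 0.64, adjusted p = 0.0191; 0.37 without sgWDR77-1 replicate 1), and the call was lost without sgNeg replicate 1, sgNeg replicate 2 or sgPRMT5-1 replicate 3, with library totals alone and with the guides pooled. RPS27 itself, its close relative, had a log2 fold change of -0.09 (adjusted p = 0.514).

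**Figure D4:**
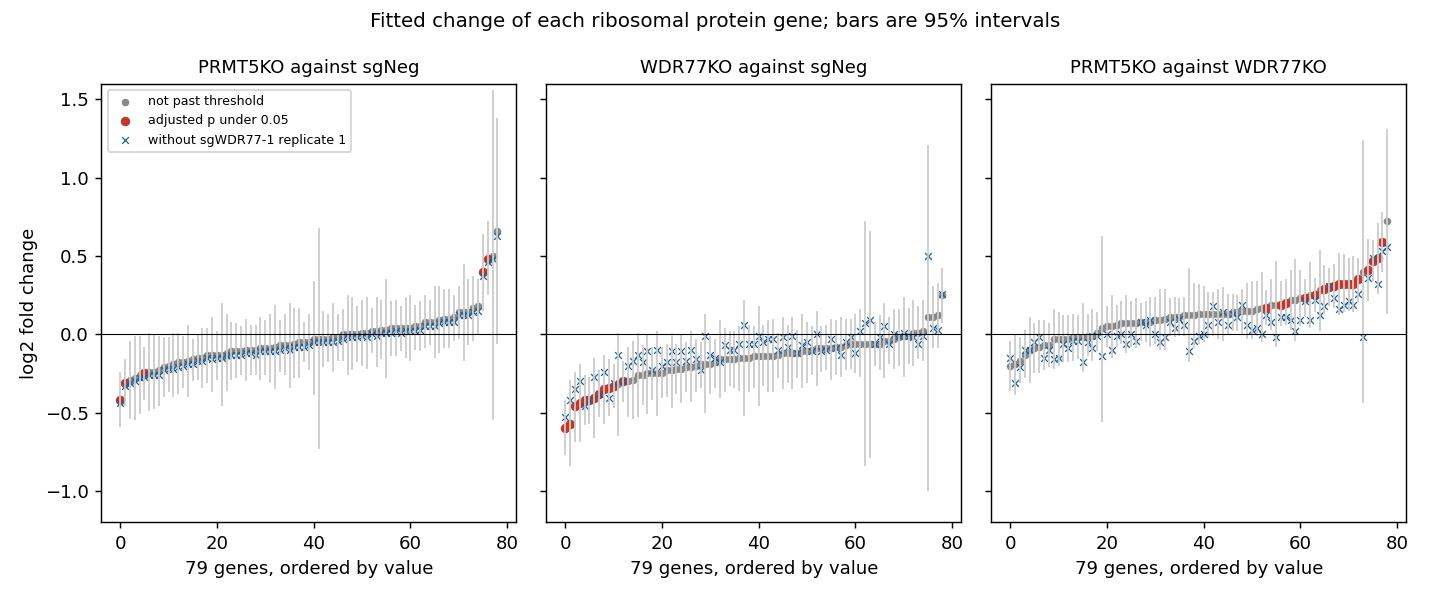
Log2 fold change (vertical axis) of the 79 ribosomal protein genes, ordered by value, in 3 comparisons, with 95% intervals; red points passed the threshold and crosses are the values without sgWDR77-1 replicate 1. The left panel has 5 red points, the middle 12 and the right 17.

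With sgPRMT5-1, 0 genes were higher and 0 lower, beside 1.26% higher and 1.61% lower of all genes (limma voom), and 4 had an unadjusted p under 0.05; 3 were lower without sgWDR77-1 replicate 1. With sgPRMT5-2, 4 were higher and 7 lower, beside 16.3% higher and 14.7% lower; the higher ones were RPS26, RPS27L, RPL38 and RPL17, and the lower ones RPL22, RPL39L, RPS14, RPL27A, RPLP0, RPLP1 and RPL12. RPL38, RPS14, RPL12 and RPL39L in this comparison were named after their values were seen, and RPL17 had 7 to 32 counts per library. Of 23 alternatives, RPL17 passed in 12, RPLP1 in 16, RPL39L in 18 and RPS27L in 22. With library totals alone 2 were higher and 14 lower, and with upper-quartile factors 5 and 3, so the balance of directions depended on scaling. The count was 5 without sgNeg replicate 1 or sgPRMT5-2 replicate 2, 6 and 7 without the other sgPRMT5-2 libraries, and 17 without sgWDR77-1 replicate 3. In the absence of sgWDR77-1 replicate 1, 20 were lower and 5 higher, beside 19.2% lower and 18.4% higher. Tested directly, sgPRMT5-2 against sgPRMT5-1 gave 0 higher and 0 lower, beside 3.56% higher and 3.98% lower, with 4 at an unadjusted p under 0.05. Without sgWDR77-1 replicate 1, 3 were lower, and 1 was higher and 7 lower when only their 6 libraries were fitted. The count among the 79 genes thus depended on the libraries in the fit. The share of all genes in those alternative fits is not given, so a change particular to the 79 cannot be told.

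The knockouts were also tested against each other, in the fit of all 15 libraries. In PRMT5KO against WDR77KO, 17 genes were higher (21.5%) and 0 lower, beside 15.7% higher and 11.4% lower of all genes, with a median log2 fold change of 0.13 (0.02 over all genes). In the fit without sgWDR77-1 replicate 1, 18 were higher and 4 lower, beside 16.0% higher and 14.9% lower, 15 of the 17 were among the 18, and the median was 0.04. With library totals alone the counts were 13 higher and 3 lower, and 27 passed without sgWDR77-1 replicate 3. Among the 17, the difference was largest in RPS26 (0.59, 0.40 to 0.78, adjusted p = 8.15e-05), then RPS21 (0.49, adjusted p = 0.00232), RPL6 (0.47, 0.34 to 0.60, adjusted p = 1.43e-05), RPS27L (0.41, adjusted p = 0.00340) and RPLP0 (0.35, adjusted p = 0.000834). For RPL6 every PRMT5KO library, at 648 to 748 CPM, was above every WDR77KO library, at 428 to 572. RPL5 (0.25, adjusted p = 0.00142) and RPLP2 (0.23, adjusted p = 0.00581) likewise showed no overlap. Leaving out sgWDR77-1 replicate 1 made these 7 values 0.53, 0.32, 0.49, 0.36, 0.26, 0.22 and 0.21, in the order given.

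The remaining genes fixed by their roles did not pass the threshold in either knockout in the fit of all libraries. RPS2 had log2 fold changes of -0.10 in PRMT5KO and -0.22 in WDR77KO, where it was lower without sgWDR77-1 replicate 1 (-0.18, adjusted p = 0.0488), and RPS6, the small subunit protein phosphorylated by S6 kinases, -0.13 and -0.18. RPS4X, whose gene is on X, had -0.07 and -0.07. RPS27A and FAU are made as fusions with ubiquitin or a ubiquitin-like protein; RPS27A had 0.03 and -0.26 (adjusted p = 0.853 and 0.0811), and FAU 0.08 and -0.14. With sgWDR77-1 alone, RPS27A was lower (-0.44, adjusted p = 0.0106; -0.27 and 0.0220 without its replicate 1), a call lost when only the libraries compared were fitted. RPS2 was lower there too (-0.31, adjusted p = 0.0324; -0.21 and 0.0723 without its replicate 1), in 16 of 23 alternatives. RPL39 had 0.14 and -0.14, and its paralog RPL39L -0.26 and -0.16. RPS10 and RPL36A were too sparsely counted to tell, with 95% intervals of -0.55 to 1.56 and -0.73 to 0.68 in PRMT5KO.

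The other genes of ribosome production came from fixed lists. In PRMT5KO, small subunit assembly factors were higher in 42 of 57 and lower in 0 (median 0.43), and large subunit assembly factors were higher in 39 of 63 and lower in 1 (median 0.41), beside the 12.0% higher of all genes. EMG1, a methyltransferase of the 18S ribosomal RNA, had 0.73 (adjusted p = 0.000233), BYSL 0.64 (adjusted p = 0.00117) and GRWD1, a chaperone of RPL3, 0.71 (adjusted p = 0.000370). In WDR77KO neither list had a gene past the threshold (limma voom; 9 of 57 and 10 of 63 at an unadjusted p under 0.05), with medians of 0.11 and 0.07. The difference itself was tested: in PRMT5KO against WDR77KO, 35 of 57 small subunit factors and 39 of 63 large subunit factors were higher and 0 and 1 lower, beside 15.7% higher and 11.4% lower of all genes. When sgWDR77-1 replicate 1 was left out, that test gave 43 and 45 higher (beside 16.0%). Against sgNeg in that fit, 44 and 44 were higher in PRMT5KO, beside 14.5% of all genes. In WDR77KO, 0 and 0 were higher and 1 and 2 lower, beside 4.21% higher and 6.98% lower.

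The guides were also taken apart for these lists of 57 and 63. With sgPRMT5-1, 1 and 0 were higher (29 and 24 at an unadjusted p under 0.05, medians 0.28 and 0.24), beside 1.26% of all genes. With sgPRMT5-2, 49 and 49 were higher, beside 16.3% (medians 0.57 and 0.58). Without sgWDR77-1 replicate 1, sgPRMT5-2 had 51 and 50 higher, beside 18.4%. In the direct test, 9 and 12 were higher with sgPRMT5-2 than with sgPRMT5-1, beside 3.56%. With sgWDR77-1, 2 and 2 were lower (3.51% and 3.17%, below the 5.90% of all genes, with medians of -0.08 and -0.04). Without its replicate 1, 1 and 4 were lower (1.75% and 6.35%, beside 5.31%). The large subunit share was then above that of all genes. With sgWDR77-2, 2 and 0 were higher (3.51% and 0%, beside 1.81%; medians 0.27 and 0.20). Tested directly, 5 and 4 were higher with sgWDR77-2 than with sgWDR77-1 (8.77% and 6.35%, beside 1.84%), and 8 and 8 without sgWDR77-1 replicate 1 (beside 2.28%).

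The lists that follow stand beside 12.0% higher and 10.8% lower of all genes in PRMT5KO and 2.90% and 5.55% in WDR77KO. Genes of RNA polymerase I transcription were higher in 8 of 20 in PRMT5KO (median 0.25), among them the initiation factor RRN3 (0.63, adjusted p = 0.000331), and 0 of 20 passed in WDR77KO (6 at an unadjusted p under 0.05). Nucleolar chaperones and box H/ACA proteins were higher in 6 of 12 in PRMT5KO, with TCOF1 at 0.60 (adjusted p = 0.000396) and the pseudouridine synthase DKC1 at 0.56 (adjusted p = 0.000917), whereas in WDR77KO 1 of 12 was lower, the histone chaperone NPM3 (-0.74, adjusted p = 0.000623). NPM3 stood at 56.5, 56.9 and 59.3 CPM in sgNeg and at 53.3, 41.0 and 43.6 in sgWDR77-2. In sgWDR77-1 it stood at 17.9, 33.3 and 29.6, lowest in replicate 1. Elongation factors and other genes with TOP mRNAs gave 0 of 15 in PRMT5KO (1 at an unadjusted p under 0.05) and 1 lower in WDR77KO, EIF3F (-0.47, adjusted p = 0.00400). Host genes of small nucleolar RNAs gave 2 higher and 1 lower of 14 in PRMT5KO, and 2 lower in WDR77KO, ZFAS1 (-0.71, adjusted p = 0.0245) and SNHG5 (-0.81, adjusted p = 0.0340). Of the 6 other ribosomal components and paralogs, 2 were higher in PRMT5KO (RPL22L1 and RPL7L1) and 1 in WDR77KO, RPL36AL (0.55, adjusted p = 0.00399), a paralog of RPL36A. Of the 5 genes of the PRMT5 complex, 1 was higher and 1 lower in PRMT5KO (RIOK1 and PRMT5) and 1 lower in WDR77KO (WDR77). By guide, the polymerase I, chaperone and host gene lists had 0, 0 and 0 higher with sgPRMT5-1, beside 1.26% of all genes. With sgPRMT5-2 they had 10, 8 and 6 higher, beside 16.3%. In the direct test of these guides, 2, 0 and 1 were higher with sgPRMT5-2, beside 3.56%. In PRMT5KO without sgWDR77-1 replicate 1, 14.5% of all genes were higher and 15.1% lower. Beside these shares, the polymerase I list had 9 higher and 1 lower, the chaperones 8 and 1, the TOP genes 0 and 2, and the host genes 2 and 2. In WDR77KO without that library, the polymerase I list had 1 lower, the chaperones 1, the TOP genes 1 and the host genes 2, beside 6.98% of all genes. ZFAS1 stood at 5.91 CPM in sgWDR77-1 replicate 1 and at 11.3 and 18.2 in replicates 2 and 3 of that guide. RPL36AL stood at 402, 256 and 322 in the same order.

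Mitochondrial ribosomal proteins, which build the separate ribosome of the organelle, were higher in 10 of 76 (13.2%, near the 12.0% of all genes) and lower in 0 in PRMT5KO (median 0.18), with MRPS10 at 0.38 (adjusted p = 0.00402). Without sgWDR77-1 replicate 1 these were 14 and 2 (18.4% and 2.63%, beside 14.5% and 15.1% of all genes). With sgPRMT5-1, 0 were higher, and with sgPRMT5-2, 17 were higher (22.4%, beside 16.3% of all genes) and 1 lower. Between these guides the direct test had 1 higher with sgPRMT5-2 (1.32%, beside 3.56%). In WDR77KO 5 of 76 were lower (6.58%, beside 5.55% of all genes) and 0 higher (median -0.05), MRPL11 among them at -0.46 (adjusted p = 0.000396). Without sgWDR77-1 replicate 1, 5 were lower and 1 was higher, beside 6.98% lower and 4.21% higher of all genes. Their medians in PRMT5KO and WDR77KO, 0.18 and -0.05, stood beside -0.05 and -0.14 of the 79 cytoplasmic genes; the difference between the lists was not tested. In PRMT5KO against WDR77KO, 28 of the 76 were higher (36.8%, beside 15.7% of all genes) and 0 lower, and 25 were higher without sgWDR77-1 replicate 1 (beside 16.0%). With sgWDR77-1, 10 were lower (13.2%, beside 5.90%), and 7 without its replicate 1 (9.21%, beside 5.31%), and with sgWDR77-2, 1 was lower and 1 higher. Tested directly, 10 were higher with sgWDR77-2 than with sgWDR77-1 (13.2%, beside 1.84%). Without sgWDR77-1 replicate 1, 7 were higher in that test (9.21%, beside 2.28%).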

How the data were processed

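RNA was sequenced from 15 HSC-5 libraries. The deposited values are counts of reads per gene that the authors made with STAR (hg38) and HTSeq; the annotation release and strand setting were not given in the sources used here. The 5 summary rows at the foot of each table (reads outside genes 2.75% to 7.16%, ambiguous 7.09% to 7.93%) entered neither library sizes nor tests. The check of units could not read the columns, so no count-model tool was used. Symbols came from the tables, and positions and lengths from GENCODE release 44 by gene ID (60507 of 60649 rows). Counts were fitted with limma 3.58.1 (voom) in R 4.3.3, all 15 libraries in 1 model, on TMM-scaled counts with a mean normalized count of at least 3, and p-values were Benjamini-Hochberg adjusted over all genes tested. The fit was tested on simulated data, whose outcome is not given here and is not used for any result above. The genes and lists were chosen with earlier results of these data known. Some genes are not reported here. Named genes were those fixed by role and the 3 highest and 3 lowest levels. Others were the 5 highest and 5 lowest past the threshold in PRMT5KO and WDR77KO, against sgNeg and against each other. Also named were the 3 smallest adjusted p of each list in PRMT5KO and WDR77KO. With 5146711 to 6730428 counts per library, low genes have wide errors, and p-values measure the spread between cultures labelled as biological replicates.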

Additional observations from a re-analysis of the deposited data

Results flagged for a closer look

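The effects of the knockouts differed by the direct test of PRMT5KO against WDR77KO (limma voom) in 17 genes. All were higher in PRMT5KO (21.5% of the 79, beside 15.7% higher and 11.4% lower of all genes). On the log2 scale they included RPS26 (0.59), RPS21 (0.49), RPL6 (0.47), RPS27L (0.41), RPLP0 (0.35), RPS13 (0.32), RPS7 (0.32), RPSA (0.32), RPS20 (0.31), RPL23 (0.30), RPS27A (0.29), RPL5 (0.25), RPLP2 (0.23), RPL27 (0.20), RPL35A (0.19) and RPL4 (0.17). Without sgWDR77-1 replicate 1, 18 of the 79 were higher and 4 lower, beside 16.0% higher and 14.9% lower of all genes. Of the 17, 15 passed again, and RPL27 and RPL35A did not. The values were then 0.53, 0.32, 0.49, 0.36, 0.26, 0.19, 0.21, 0.16, 0.23, 0.31, 0.18, 0.22, 0.21, 0.11, 0.11 and 0.12, in the order given. Of 24 alternatives, RPL27 passed in 10, RPL35A in 9, RPL4 in 17 and RPSA in 19. With the sgRNAs of a gene pooled, 9 genes passed, and RPS13 and RPS27A were among those that did not.

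The effects of the guides to WDR77 differed by the direct test of sgWDR77-2 against sgWDR77-1 in genes that included RPS26 (0.70), RPSA (0.56), RPS7 (0.49) and RPLP0 (0.38). Without sgWDR77-1 replicate 1, the calls of RPS26, RPSA and RPS7 remained (0.61, 0.28 and 0.29) and that of RPLP0 did not (0.23). Of 23 alternatives, RPS26 passed in 21, RPSA in 10 and RPLP0 in 6.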

How the results depend on the processing

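Of 61 calls of genes named by the rule for named genes, 22 stayed past the threshold in every alternative. Another 39 were lost in at least 1 and 0 reversed. Genes and lists were chosen with earlier results of these data known, and the rule takes some genes because they passed the threshold. These counts are therefore not an independent rate of stability. Calls of genes outside that rule, such as RPS14, RPS7, RPL38 and RPL12, were not counted. RPL6 in WDR77KO (among the 22) and RPL39L in sgPRMT5-2 (among the 39) were counted. Both were named in those comparisons after their values were seen. The cause of the shifts below was not tested.

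With library totals alone, PRMT5KO had 11 genes past the threshold (5 as reported), sgPRMT5-1 1 (0) and sgWDR77-2 against sgWDR77-1 1 (5). With only the libraries compared, PRMT5KO had 18, WDR77KO 7 (12), sgPRMT5-2 24 (11), sgWDR77-1 2 (21), the PRMT5 guides against each other 8 (0) and the WDR77 guides 0. With the sgRNAs of a gene pooled as 1 group, PRMT5KO had 11, WDR77KO 5 and PRMT5KO against WDR77KO 9 (17). Upper-quartile factors gave 4 for sgWDR77-2 (7), RLE size factors 3 for the WDR77 guides, and no filter 1 for sgPRMT5-1 and 3 for the WDR77 guides. Directions shifted with scaling in sgPRMT5-2 (4 higher, 7 lower): 2 and 14 with library totals, 5 and 3 with upper quartiles, 3 and 10 with RLE; PRMT5KO against WDR77KO (17 and 0) gave 15 and 2 with RLE.

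Leaving out each library in turn gave 4 to 19 for PRMT5KO, 7 to 22 for WDR77KO, 13 to 27 for PRMT5KO against WDR77KO, 0 to 3 for sgPRMT5-1, 5 to 25 for sgPRMT5-2, 12 to 39 for sgWDR77-1, 2 to 13 for sgWDR77-2, 0 to 3 for the PRMT5 guides and 0 to 18 for the WDR77 guides.

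The replicate block gave 3 for the WDR77 guides, 5 for PRMT5KO, 12 for WDR77KO and 18 for PRMT5KO against WDR77KO. It gave 9 for sgPRMT5-2 and 6 for sgWDR77-2, where RPS24 was lost. Same-number pairs of libraries correlated from -0.50 to 0.42, with 5 of 30 above 0.1, and the main fit did not pair them. Pairs with different numbers were not compared, so whether some libraries share a batch was not tested.

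The median level per kilobase in sgNeg was 146 over the union of exons, 247 over the longest transcript and 582 over the MANE Select transcript, the last chosen after seeing the data. Fits with edgeR and DESeq2 were not run.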
